A study of Solanum tuberosum with 22 samples.

Results

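Potato tubers of 26-35 mm were compared with tubers of 16-25 mm, the last step of size in a series of growing tubers (Solanum tuberosum). The comparison rests on 4 two-colour arrays of 32448 spots, 2 of each size class, each carrying the RNA of 1 size class and a pool of RNA from all stages of the same system. The members of the comparison are the spots that had a value on all 4 arrays and differed in the same direction between the classes in both replicates. Of 32448 spots, 9151 had all 4 values and 4662 of these were members, 2619 of them higher and 2043 lower in the larger tubers. The choice of members uses the sign of the values, so their number is a description and not a test.

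All tubers came from growth chamber plants, and the labels give no genotype and no plant age. Each replicate was a set of 10 plants, and the sets were grown one after the other in the same chamber. The tissues were stolons, the underground shoots whose tips swell into tubers, and tubers of 1-5, 6-10, 11-15, 16-25 and 26-35 mm, and the series also holds microtubers of 2 to 30 days grown in tissue culture. Stolon RNA was amplified before labelling, so the stolon arrays were left out of the tests. The sample was labelled with Cy3 in replicate 1 and with Cy5 in replicate 2, so replicate and dye cannot be told apart. The values are the deposited log2 ratios, with those of replicate 2 of the stolons and tubers turned to the opposite sign. The deposited ratios of the replicates correlated at r = -0.45 over spots for 26-35 mm and r = -0.43 for 16-25 mm. The direction used here is the likely one, since the order of sample and pool in the ratio is not stated, and the other choice exchanges "higher" and "lower" in every sentence.

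A potato tuber grows from a stolon tip by cell division followed by cell enlargement while it fills with starch and storage protein. Its main storage proteins are the patatins, lipid acyl hydrolases kept in the vacuole, and several families of protease inhibitors accumulate beside them. Sucrose from the leaves enters the tuber, is cleaved and is turned into starch in amyloplasts, the starch-storing plastids. Size classes are mixtures of cells, and in bulk RNA a change in the share of a cell type cannot be told apart from a change of RNA per cell.

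The deposited table gave values for 36.4% and 42.6% of spots on the 16-25 mm arrays (replicates 1 and 2) and for 37.0% and 39.3% on the 26-35 mm arrays. Over all in vivo arrays the share lay between 33.1% and 48.9%. A further 92 spots had values on both 26-35 mm arrays and on neither 16-25 mm array, and 172 spots showed the reverse. These spots have no ratio in 1 of the classes and were not compared. The number of arrays, 2 a class, limits the precision of every value.

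Most differences between the size classes were small. The median size of the mean difference of a member was 0.24 log2 units, 570 members differed by less than 0.1, and over all 9151 spots the 5th and 95th percentiles were -0.38 and 0.46. A mean difference of at least 1 log2 unit was reached by 67 members, 41 higher and 26 lower. Opposite signs were found for 4060 spots, and for 429 spots the difference was 0 in a replicate. The smallest difference of a member in a replicate was 0.002.

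The replicates shared little of the pattern across spots. The within-replicate differences of replicates 1 and 2 correlated at r = 0.15 (Spearman's rho 0.13) over the 9151 spots, which are not independent since most clones were printed on 2 spots. Within a replicate the differences of the 2 spots of a clone correlated at r = 0.58 and r = 0.59, over the 3862 clones with all values on both spots. Between the spot of a clone in one replicate and its other spot in the other replicate the correlation was 0.18 and 0.19. The SD of the difference over spots was 0.41 in replicate 1 and 0.33 in replicate 2, with medians of -0.01 and 0.05.

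**Figure D1:**
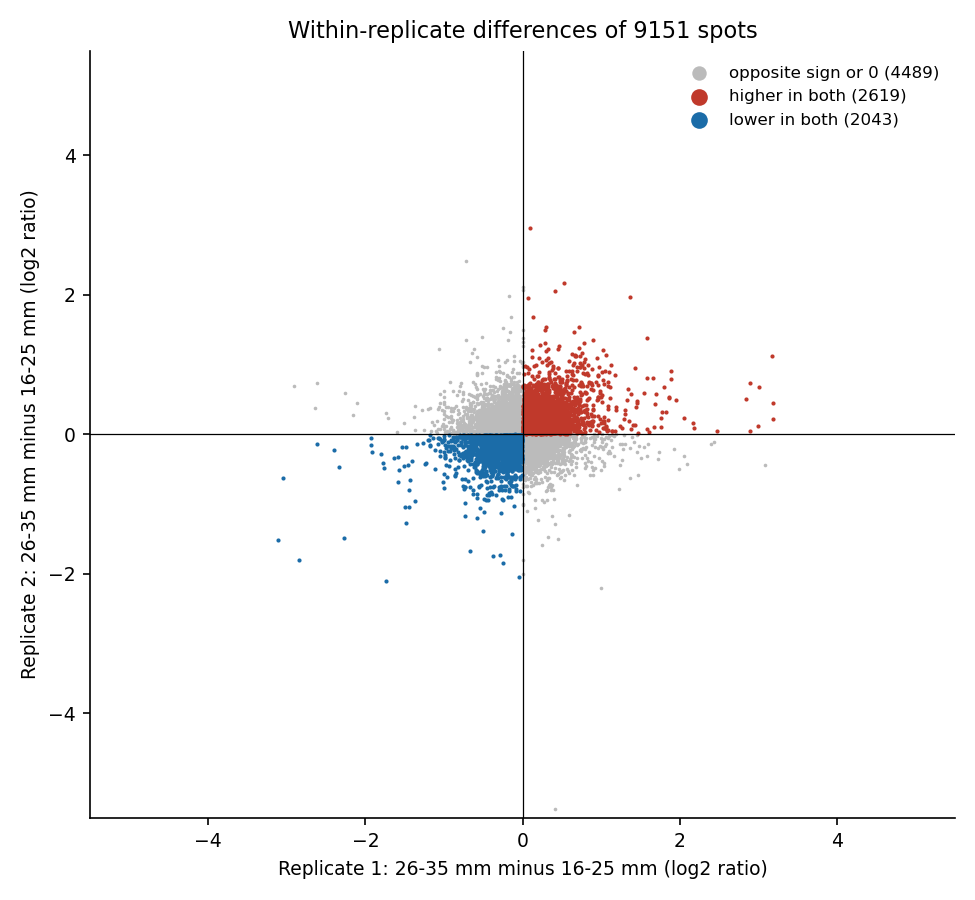
Each point is a spot, with the difference in log2 ratio between 26-35 mm and 16-25 mm tubers in replicate 1 on the horizontal axis and in replicate 2 on the vertical axis. Red points (2619) were higher and blue points (2043) lower in both replicates, and the cloud is nearly round, with r = 0.15.

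No spot passed the test. With limma on the 10 tuber arrays, with size class and replicate as terms and Benjamini-Hochberg adjustment over 9151 spots, 0% of spots had an adjusted p under 0.05. At an unadjusted p under 0.05 there were 466 spots, 5.09% of those tested, a share close to the threshold itself. Without the replicate as a term the count of called spots was 0 as well, with 15 spots (0.164%) at an unadjusted p under 0.05. The counts of calls depended on single arrays. Without replicate 1 of the 16-25 mm tubers 2 spots were called, without replicate 2 of the 16-25 mm tubers 4, and without replicate 2 of the 26-35 mm tubers 7. Without replicate 1 of the 26-35 mm tubers the count was 0. In these fits the class with 1 array was assumed to vary like the others.

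The step to 26-35 mm was set beside the earlier steps in the same fit, each with its own tested spots. From 1-5 to 6-10 mm 43 of 9233 spots passed (0.466%), 42 of them higher, and 793 (8.59%) had an unadjusted p under 0.05. From 6-10 to 11-15 mm none of 9052 passed and 1238 (13.7%) had an unadjusted p under 0.05. From 11-15 to 16-25 mm none of 9609 passed and 340 (3.54%) did so. The correlation between the replicates' differences was 0.27, 0.39 and 0.04 for these 3 steps, against 0.15 for the step to 26-35 mm. Neighbouring steps share the arrays of a class. The difference between the step to 26-35 mm and the step to 16-25 mm was tested directly, and no spot of 8763 passed (0%), with 171 (1.95%) at an unadjusted p under 0.05. Leaving out replicate 1 or replicate 2 of the 16-25 mm tubers gave 2 and 6 called spots for this difference.

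Of the 430 genes that the platform annotation pairs with spots, many of them by a locus number alone, 342 could be compared as means over their spots. No gene mean passed the test (0%), and 18 (5.26%) had an unadjusted p under 0.05. Both replicates were higher for 97 gene means (28.4%), both lower for 95 (27.8%), and the replicates differed in sign for the other 150. No count of a gene list below was tested against these shares. The median difference was 0.02 log2 units. The 95% interval of the difference lay within -1 and 1 for 304 gene means (88.9%), with a median half-width of 0.42. Without replicate 2 of the 16-25 mm tubers 2 gene means were called, LOC102583085 and HRBP1, and without replicate 1 of that class 1 was called, FLS. The genes below are those with the smallest p in each direction and members of the gene lists. None of them passed the threshold, and their values are given for what they are. The genes of smallest p were chosen to have the same sign in both replicates, which favours arrays of both classes that do not overlap. How many of all gene means have such arrays was not counted, so the order of arrays below is a description.

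Storage proteins and inhibitors come first, as the proteins a growing tuber accumulates. API is an inhibitor of aspartic proteases of the Kunitz family. Its log2 ratio to the pool was 1.87 in 16-25 mm and 2.77 in 26-35 mm tubers of replicate 1, and 0.92 and 2.06 in replicate 2. Each larger class lay above the smaller one within its replicate, and both 26-35 mm arrays lay above both 16-25 mm arrays. The difference was 1.02 ± 0.32 log2 units (SE from limma, 2 replicates, adjusted p = 0.57), with both spots of the gene higher in both replicates. KTI-C, a Kunitz inhibitor, was measured on 5 of its 14 spots. It went from 2.03 to 2.70 in replicate 1 and from 0.45 to 0.96 in replicate 2. The difference was 0.59 ± 0.29 (adjusted p = 0.81), and the arrays of the classes overlapped because replicate 1 lay above replicate 2 throughout. PIN-II, a serine protease inhibitor, went from 1.95 to 1.75 in replicate 1 and from 0.62 to 1.00 in replicate 2, so its replicates differed in sign. Kunitz inhibitors form a family of similar genes, and spots of cDNA clones may hybridise with several of them. Of the 5 genes in the list 3 were measured, both replicates were higher for 2 and none were lower in both. The shares over all gene means were 28.4% higher and 27.8% lower in both replicates. The median difference of the list was 0.59 against 0.02 over all gene means.

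Patatin could not be compared. Of its 6 spots, 2 had a value in 16-25 mm and 1 in 26-35 mm tubers of replicate 1, and none had one in either class of replicate 2. In 1-5 mm and 6-10 mm tubers of replicate 1 all 6 had values, with a highest log2 ratio of 0.32 and 0.36. In replicate 2 only 2 spots had values at 1-5 mm and 3 at 6-10 mm. At 11-15 mm 3 spots had values in replicate 1, with a highest of 1.89, and 5 in replicate 2, with a highest of 1.22. The highest patatin value of the large tubers was 0.88 at 16-25 mm and 1.33 at 26-35 mm in replicate 1. These highest values come from unequal numbers of spots and do not rank the classes. Why spots lacked values, in the large tubers of both replicates and in the small tubers of replicate 2, was not tested.

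API and KTI-C ranked the size classes in the same order in both replicates. From 1-5 to 26-35 mm API read -3.01, -0.39, 0.86, 1.87 and 2.77 in replicate 1 and -5.11, -1.19, 0.06, 0.92 and 2.06 in replicate 2. Every step was upward, and the earliest step was the longest in both replicates. KTI-C read -0.56, 0.63, 1.71, 2.03 and 2.70 in replicate 1 and -2.86, -0.23, -0.02, 0.45 and 0.96 in replicate 2. With these levels, and with those of GBSS, the large tubers carried the transcripts that mark storage tissue. GBSS, the granule-bound starch synthase that makes amylose, read 1.24 and 1.23 in replicate 1 and 0.29 and 0.62 in replicate 2 (16-25 mm, then 26-35 mm). The measured markers of green tissue lay below the pool in replicate 1, and PSBR and MSP-II did so in both replicates. OEE2 read -0.25 at 16-25 mm and 0.08 at 26-35 mm in replicate 2. PSBR, a small protein of photosystem II, lay at -1.35 and -1.41 in replicate 1 and at -3.41 and -3.66 in replicate 2. Among markers of dividing tissue actin AC97 read -0.10 and -0.27 in replicate 1 and 0.70 and 0.95 in replicate 2, and neither CYCD3.2 nor CYCD3.3, D-type cyclins, had the 4 values a comparison needs.

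**Figure D2:**
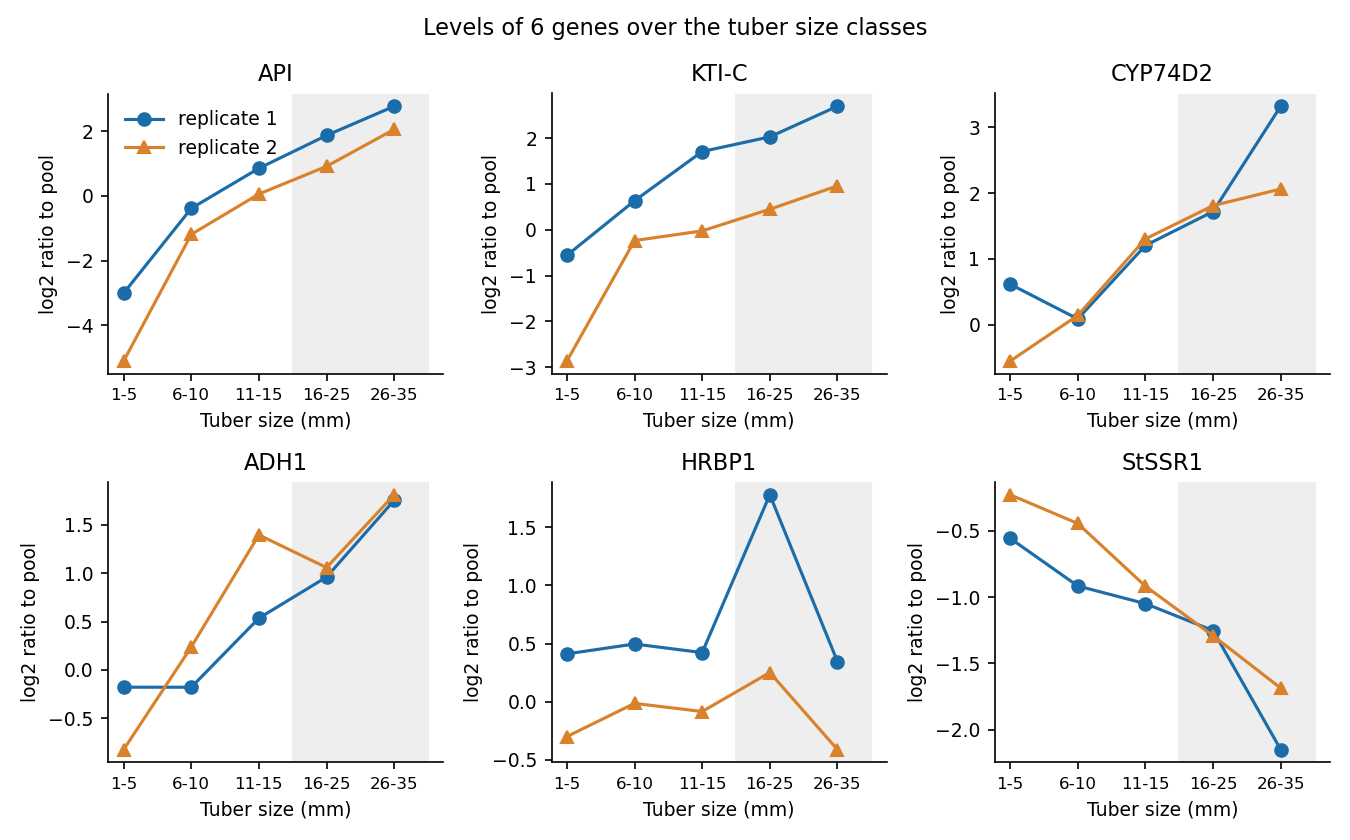
Log2 ratio to the pool of 6 genes (means over their spots) on the vertical axes against tuber size class on the horizontal axes, with replicate 1 as circles and replicate 2 as triangles and the compared classes shaded. API and KTI-C are higher and StSSR1 is lower at each larger class in both replicates, and HRBP1 is highest at 16-25 mm in both replicates.

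Starch enzymes differed by -0.03 to 0.34 log2 units, and none had an unadjusted p under 0.05. Of 11 genes in the list 8 were measured, 5 were higher in both replicates, none were lower in both and 3 differed in sign. Over all gene means 28.4% were higher and 27.8% lower in both replicates. The median difference of the list was 0.31 against 0.02 over all gene means. UGPase, an enzyme of UDP-glucose metabolism, went from 0.74 to 0.92 in replicate 1 and from 0.34 to 0.77 in replicate 2 (difference 0.30 ± 0.18). GBSS-II, named for a further granule-bound starch synthase, went from 1.68 to 1.91 and from 0.86 to 1.30 (0.33 ± 0.20). Enzymes that break starch down were measured as well. AMYA1, an alpha-amylase, went from 1.84 to 2.31 and from 0.57 to 0.76 (0.34 ± 0.21), and dpeP, a disproportionating enzyme acting on maltodextrins, from 1.45 to 1.58 and from 0.58 to 1.00 (0.27 ± 0.17). The phosphorylase glgP differed in sign, with -0.045 in replicate 1 and 0.70 in replicate 2. Both 26-35 mm arrays lay above both 16-25 mm arrays for UGPase, while the classes overlapped across replicates for GBSS-II, AMYA1 and dpeP. The adjusted p was 0.81 for each of the 4 genes.

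The genes of sucrose use lay near 0. Of 7 genes of sucrose and sugar nucleotides 3 were measured, none were higher in both replicates and 2 were lower in both, with differences from -0.13 to -0.03. The sucrose synthase SS16 differed by -0.03 ± 0.23 and the vacuolar invertase PAIN-1 by -0.13 ± 0.18. The interval of SS16 reached from -0.57 to 0.50, so differences of that size would not have been seen.

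Among fermentation and glycolysis genes ADH1 stood at the top. ADH1 encodes alcohol dehydrogenase, which turns acetaldehyde into ethanol when oxygen is short. It went from 0.96 to 1.75 in replicate 1 and from 1.06 to 1.81 in replicate 2, and both 26-35 mm arrays lay above both 16-25 mm arrays. The difference was 0.77 ± 0.30 (adjusted p = 0.81), nearly the same in both replicates. LDH-2, a lactate dehydrogenase, differed by 0.20 ± 0.17, and the glycolytic enzymes PGAM and GAPDH by -0.15 ± 0.15 and -0.03 ± 0.14. Of the 5 genes 2 were higher and 1 lower in both replicates, with a median of 0.02.

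CYP74D2 was the only measured member of its list, since the lipoxygenases LOX2.1 and POTLX-3 and the hydroperoxide lyase HPL lacked values. The enzyme is a divinyl ether synthase, which acts on the products of lipoxygenases. Its level went from 1.72 to 3.32 in replicate 1 and from 1.81 to 2.06 in replicate 2. Both larger classes lay above both smaller ones, but the difference was 1.60 in replicate 1 and 0.25 in replicate 2 (mean 0.93 ± 0.38, adjusted p = 0.81). Across the array settings and left-out arrays the value ran from 0.41 to 1.44.

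The widest gene difference belonged to LOC102583085, for which the annotation gives no name beyond its locus. It went from 0.45 to 3.46 in replicate 1 and from 1.70 to 2.52 in replicate 2, a mean difference of 1.91 ± 0.56 (adjusted p = 0.57). Both 26-35 mm arrays lay above both 16-25 mm arrays. With replicate 2 of the 16-25 mm tubers left out the difference became 3.09 with an adjusted p of 0.0039, and over all settings it ran from 0.74 to 3.09. LOC102588776 differed by 0.55 ± 0.15 with 0.51 and 0.59 in the replicates, and all 4 of its spots were higher in both.

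Among genes lower in the larger tubers HRBP1, measured on 1 of its 2 spots, went from 1.78 to 0.34 in replicate 1 and from 0.25 to -0.41 in replicate 2, a difference of -1.05 ± 0.25 (adjusted p = 0.57). The 16-25 mm value was the highest of the 5 classes in both replicates, and at 11-15 mm the gene read 0.42 and -0.08. With replicate 2 of the 16-25 mm tubers left out the difference was -1.50 with an adjusted p of 0.0201. At 6-10 mm it read 0.50 and -0.01.

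StSSR1, a sterol side chain reductase of the sterol pathway, went from -1.25 to -2.15 in replicate 1 and from -1.29 to -1.69 in replicate 2 (-0.65 ± 0.17, adjusted p = 0.57). Both 26-35 mm arrays lay below both 16-25 mm arrays, and each class from 6-10 mm on lay below the class before it in both replicates. StSSR2, its relative, differed by -0.16 ± 0.35 with opposite signs in the replicates. FLS, flavonol synthase, differed by 0.17 in replicate 1 and -1.82 in replicate 2. It had an adjusted p of 0.014 with replicate 1 of the 16-25 mm tubers left out and 0.81 with all arrays. SGA differed by -0.24 ± 0.48. Of the 5 measured genes of phenylpropanoids, flavonoids, sterols and glycoalkaloids 1 was lower in both replicates and none higher, with a median of -0.24.

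Mitochondrial genes other than fumarase lay within 0.3 log2 units of 0. Fumarase, the enzyme of the citric acid cycle that makes malate, went from 0.05 to -0.81 in replicate 1 and from 0.48 to 0.25 in replicate 2 (-0.55 ± 0.17, adjusted p = 0.57). UCP, an uncoupling protein of the inner membrane, differed by -0.29 ± 0.16, the gene listed as ANT1 by -0.27 ± 0.17 and the Rieske iron-sulfur protein RISP by 0.14 ± 0.16. Of 14 measured genes 4 were lower and none higher in both replicates, 10 differed in sign, and the median was -0.05. Over all gene means 27.8% were lower and 28.4% higher in both replicates.

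Amino acid and nucleotide metabolism was represented by 6 measured genes with a median of -0.06, 1 higher and 3 lower in both replicates. The lower genes were gln and the nucleotide synthesis genes pyrB (-0.09 ± 0.20) and PURM (-0.03 ± 0.15). The gene listed as gln, measured on 1 of 2 spots, went from -0.89 to -1.36 in replicate 1 and from -1.86 to -2.52 in replicate 2 (-0.57 ± 0.19, adjusted p = 0.57). TS differed by 0.20 ± 0.14, CS-B, a cysteine synthase, by -0.23 ± 0.20 and SHKA, of the shikimate pathway that leads to aromatic amino acids, by 0.09 ± 0.15. All 6 genes of S-adenosylmethionine and polyamine synthesis were measured, with differences between -0.18 and 0.06. SAMDC, S-adenosylmethionine decarboxylase, read -0.17 ± 0.16 over 14 spots, MS, methionine synthase, -0.18 ± 0.16, and SpdSy, spermidine synthase, 0.05 ± 0.15. In this list 2 genes were higher and 1 lower in both replicates.

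Regulators and signalling genes lay on both sides of 0. BEL5, a homeodomain protein that promotes tuber formation, differed by 0.22 ± 0.18, the ethylene receptor ERS by 0.22 ± 0.19 and the auxin response genes IAA3 and IAA2 by -0.16 ± 0.14 and -0.08 ± 0.16. Of these 5 measured regulators 2 were higher and 2 lower in both replicates. Among 8 measured protein kinase and phospholipase genes 5 were lower and 1 higher in both, with a median of -0.11. Over all gene means 27.8% were lower and 28.4% higher in both. CDPK2, a calcium-dependent protein kinase, went from 0.18 to -0.34 in replicate 1 and from 0.53 to 0.25 in replicate 2 (-0.40 ± 0.14, adjusted p = 0.71). The MAP kinases StMPK1 and StMPK3 differed by -0.25 ± 0.16 and 0.29 ± 0.23 and plc3, a phospholipase C, by -0.17 ± 0.21. Both transcription factors with values, of 7 in the list, were lower in both replicates. MADS16, on 1 of 4 spots, differed by -0.95 and -0.11 and StMYB1R-1 by -0.36 and -0.50 (means -0.53 ± 0.25 and -0.43 ± 0.21).

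**Figure D3:**
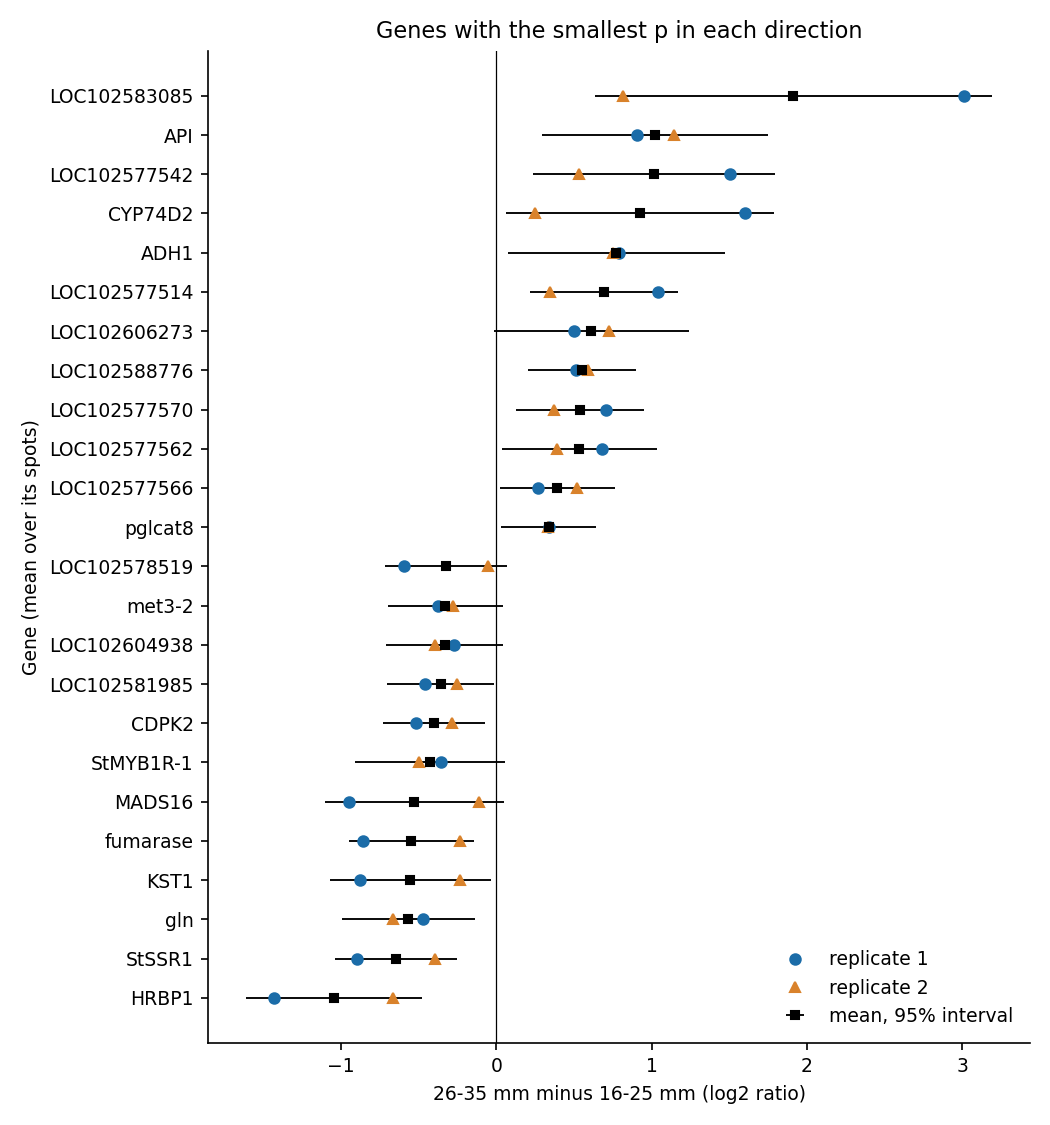
Difference in log2 ratio between 26-35 mm and 16-25 mm tubers on the horizontal axis for the 12 genes of smallest p in each direction (vertical axis), as replicate 1 (circle), replicate 2 (triangle) and their mean with its 95% interval (square and line). LOC102583085 and CYP74D2 are far apart in the replicates, API and ADH1 close together.

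Photosynthesis genes had 3 measured members, 2 lower in both replicates and none higher, with a median of -0.29. The 2 were PSBR, with -0.06 and -0.25, and MSP-II, whose difference in replicate 2 was only -0.003. MSP-II, a protein of the oxygen-evolving complex, went from -2.20 to -3.08 in replicate 1 and stayed at -1.15 in replicate 2, and OEE2 differed by -0.91 and 0.33. Transporters gave a median of -0.06 over 6 genes. Of these, 4 were lower and none higher in both replicates, against 27.8% lower and 28.4% higher over all gene means. KST1, a potassium channel measured on 1 of 4 spots, differed by -0.55 ± 0.23, the proton pumps PHA2 and PHA1 by -0.38 ± 0.23 and -0.07 ± 0.15 and XIP1-1-BETA by 0.22 ± 0.40. Both proteolysis genes were lower in both replicates, the aminopeptidase LAP by -0.26 ± 0.16 and the vacuolar processing enzyme VPE2 by -0.29 ± 0.60.

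Redox enzymes gave 3 genes higher and none lower in both replicates of 5 measured, with a median of 0.17. Over all gene means 28.4% were higher and 27.8% lower in both. DHAR and DHAR2, dehydroascorbate reductases, differed by 0.35 ± 0.19 and 0.17 ± 0.14, PPO, a polyphenol oxidase, by 0.31 ± 0.40 and catalase CAT1 by 0.14 ± 0.41. Over its spots with values on all 10 tuber arrays DHAR differed by -0.086. Translation genes gave 3 higher and 1 lower of 5, with a median of 0.17. The gene named eIF5A1/2, on 1 of 2 spots, differed by 0.21 and 1.10 (0.65 ± 0.31), RPL27 by 0.20 ± 0.19 and eIF5A3 by 0.17 ± 0.18. The chaperone gene dnaJ and the late embryogenesis gene Lea differed by 0.25 ± 0.25 and 0.27 ± 0.31, with 1 of the 2 higher in both replicates. Among 4 measured genes of the cell cycle, cytoskeleton and cell wall 1 was lower in both, the tubulin TUBB1 (-0.39 ± 0.28), and PME1 differed by 0.09 ± 0.25. The 3 defence genes of the last list lacked values.

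**Figure D4:**
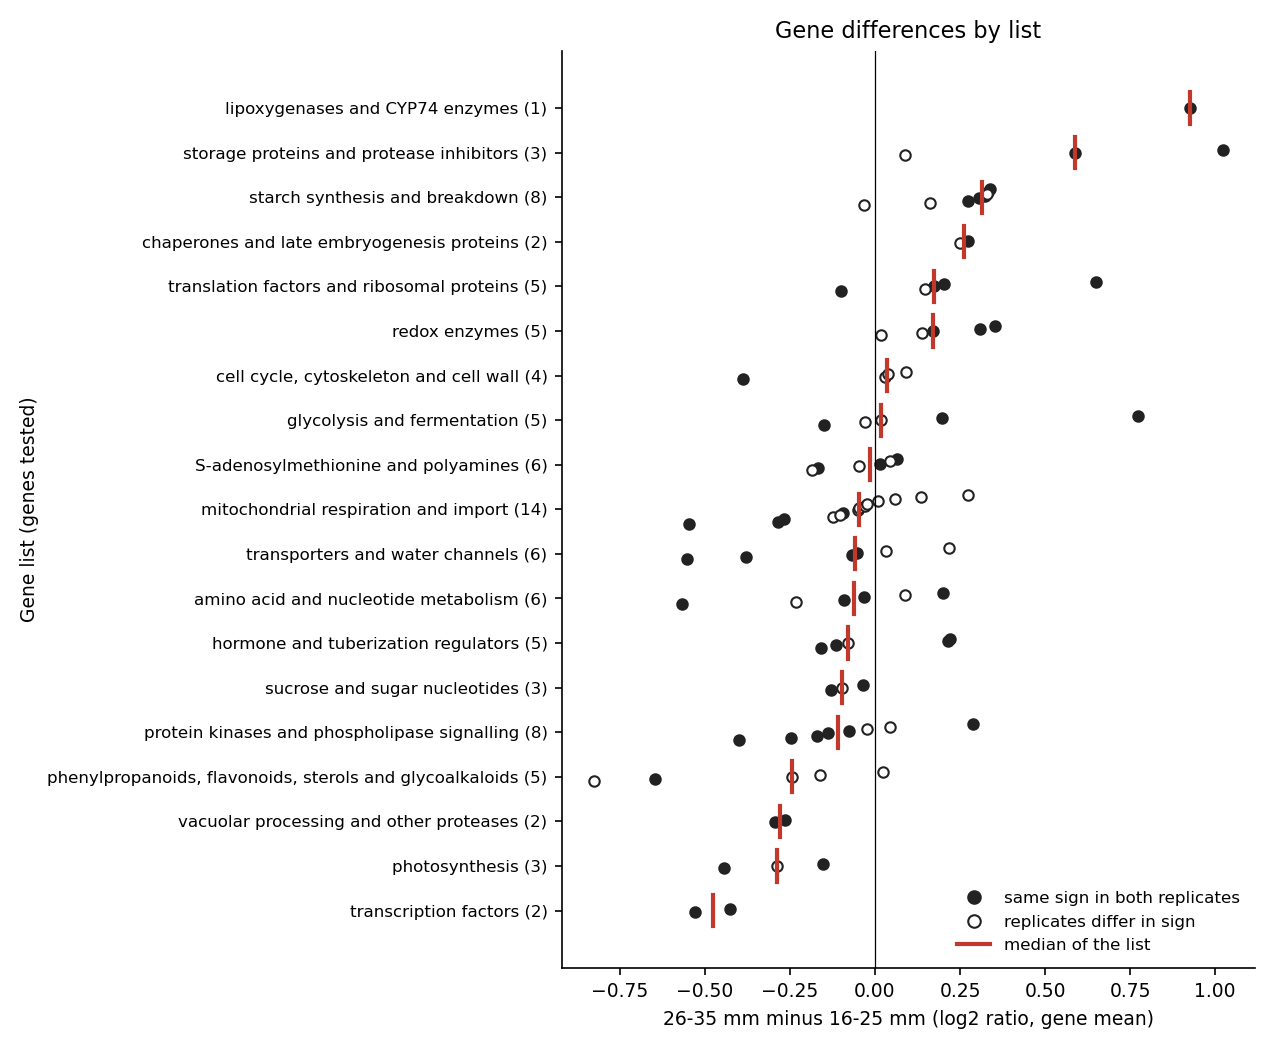
Each point is a measured gene, placed by its difference in log2 ratio between 26-35 mm and 16-25 mm tubers (horizontal axis) in the row of its list (vertical axis, number of genes in brackets), filled where both replicates had the same sign. The red line is the median of the list, 0.59 for storage proteins and inhibitors, 0.31 for starch genes and -0.48 for the 2 transcription factors.

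Some single spots with no gene name differed by more than most named genes. A gene value is a mean over the spots of the gene, and 342 gene means were tested against 9151 spots. The largest differences of the 2 sets are therefore not like for like. Of the 9151 tested spots 1147 had 1 gene. At least 1 log2 unit in the same direction in both replicates was reached by 5 of the 9151 spots that were higher and 7 that were lower. A further 2 spots passed 1 in opposite directions. Spots of API and LOC102583085 were among the higher ones, and most of the lower ones lie in pairs of the same clone. The spots given here were chosen after their values were seen, as those of largest mean difference among the spots of these 12 that have no gene name, 1 spot a clone and 2 in each direction. By their spot numbers, spots 134366 and 136225 carry the same clone. Spot 136225 went from -3.32 to -5.06 in replicate 1 and from -3.54 to -5.64 in replicate 2, and spot 134366 from -2.84 to -4.32 and from -3.42 to -4.70. The deposited log2 values read as those of ratios with 2 decimals, so steps between possible values are coarse at these low replicate 1 values. As the mean of both spots this clone differed by -1.65 ± 0.19, with an adjusted p of 0.045 in limma over the 3862 clones with all values on both spots (0.0259% called). The clone was the single one called, 204 (5.28%) had an unadjusted p under 0.05, and in the same fit without the replicate as a term no clone was called and 6 (0.155%) had an unadjusted p under 0.05. Over all 5289 clones with values none was called and 266 (5.03%) had an unadjusted p under 0.05.

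A second clone, on spots 140822 and 141666, was high in the middle of the series. Spot 140822 read 0.04, 2.55, 1.89, 1.59 and -1.25 from 1-5 to 26-35 mm in replicate 1 and -1.91, 0.28, 0.43, 0.94 and -0.86 in replicate 2. In both replicates the 26-35 mm value lay below those of the 3 classes before it. The mean difference was -2.32 ± 0.53 (adjusted p = 0.86). Among spots that were higher, spot 162594 went from -1.40 to 0.19 and from -0.44 to 0.94 (1.48 ± 0.21, adjusted p = 0.18). The other spot of its clone differed by 1.42 in replicate 1 and by -0.11 in replicate 2, and the mean of both spots by 1.07 ± 0.21 (adjusted p = 0.69 over the clones with both spots). Spot 156622 went from 0.70 to 2.07 and from -2.07 to -0.10 (1.67 ± 0.40, adjusted p = 0.86).

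**Figure D5:**
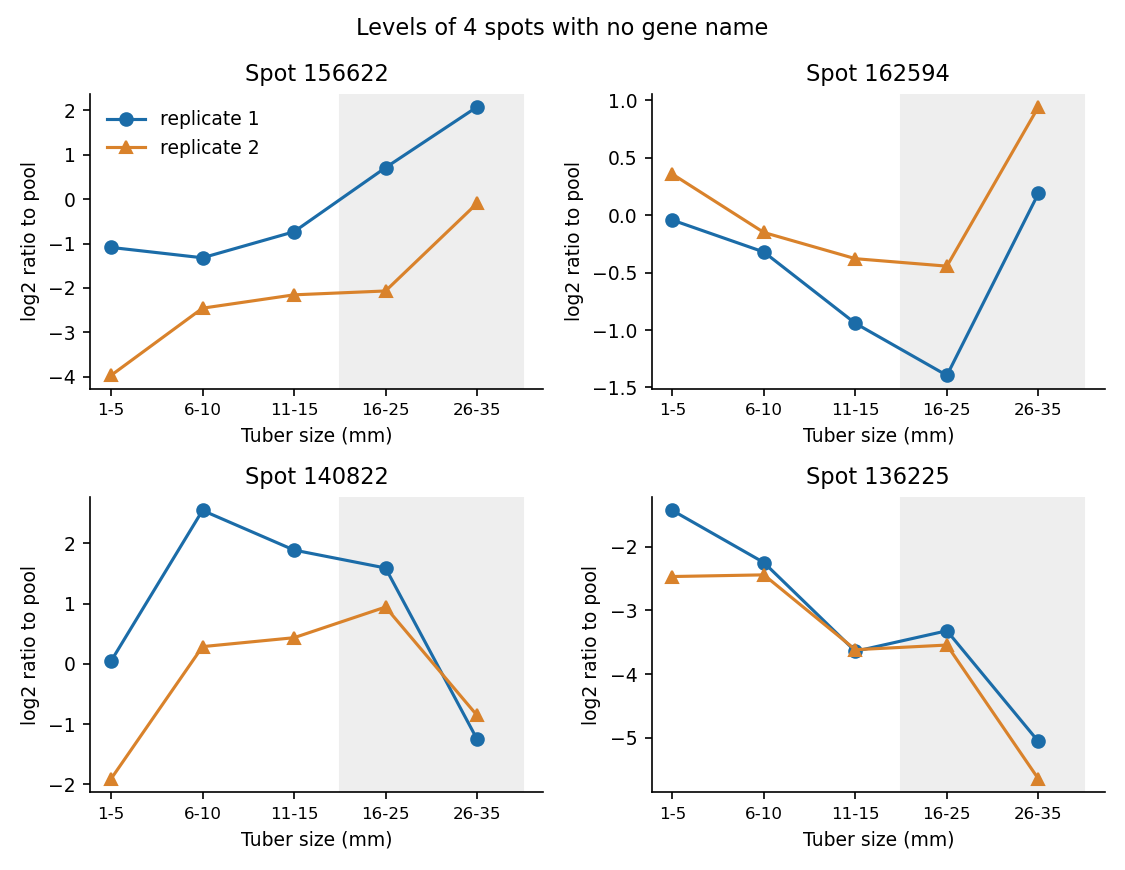
Log2 ratio to the pool (vertical axes) of 4 spots with no gene name over the tuber size classes (horizontal axes), with replicate 1 as circles, replicate 2 as triangles and the compared classes shaded. Spots 162594 and 156622 are higher and spots 136225 and 140822 lower at 26-35 mm than at 16-25 mm in both replicates.

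Microtubers of 30 and 20 days share no array with these tubers and were set beside them. The difference between 30 and 20 days correlated with that between 26-35 and 16-25 mm at r = -0.06 over 8473 spots and at r = -0.09 over the 4309 members with values in both, as a description over spots that are not independent. Of the 12 genes of smallest p in each direction, 10 higher and 11 lower ones had a microtuber value. At 30 days 5 of the 10 lay above their 20-day value and 8 of the 11 below it, with none of these differences tested. The in vivo sign is the likely one, so these signs carry the same limit. The share over all gene means was not taken, so the counts give no measure of agreement between the systems.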

How the data were processed

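The authors deposited log2 ratios of sample and pool for 2-colour arrays, per the file headers and labels. Of the tools used by the authors only limma is known, per the submitters' processing notes, and their background correction and normalization are not given in the sources. The deposited log2 values read as those of ratios with 2 decimals. Turned back into ratios, the lowest was 0.01, and 10 of the 9151 tested spots held such a value. Replicate 2 of the stolon and tuber arrays was multiplied by -1, and the microtuber arrays were left as deposited.

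The log2 ratios of the 10 tuber arrays were fitted with limma 3.58.1 in R 4.3.3, with size class and replicate as terms, moderated statistics and two-sided p-values adjusted by Benjamini-Hochberg over all spots, or all gene means, tested. A spot was tested if it had all 4 values. A gene mean was taken over the tested spots whose annotation gives 1 gene. Per the labels, the replicate number marks which of the successive plantings a sample came from. Deviations from the class means correlated at 0.92 between the compared classes and between 0.85 and 0.93 over all pairs of tuber classes. The replicates also differ in dye, so these correlations cannot tell a shared planting from a shared dye. Array weights, other scalings, other sets of arrays and left-out arrays were tried.

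The members, lists and tests were chosen with earlier results of these data known, and the lists were corrected by hand after the symbols in the annotation were read. Named genes were up to 12 each way past the threshold, filled by smallest p, and up to 4 a list. Of the spots 1630 had 1 gene, 180 several and 30638 none. All 430 genes matched the SolTub 3.0 gene table. Spots of a clone were paired by their spot numbers, 844 or 1859 apart. The rule was read from the annotated clones and paired 905 of 905 of them, so this count does not check it for the other spots.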

Additional observations from a re-analysis of the deposited data

How the results depend on the processing

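No spot and no gene mean was called, and no spot for the difference of steps where it was run, with the replicate left out as a term ("no replicate block"), with the 4 arrays alone, with stolons added with or without the replicate, with values on all tuber arrays, after median-centring or quantile normalization, with the lowest ratio missing, with array weights or in the other direction. Leaving out 1 array gave between 0 and 7 called spots, 0 to 2 gene means and 0 to 6 spots for the difference of steps. The clone means were chosen after seeing the data, and with both spots of a clone 1 was called. The replicate correlation was 0.17 with values on all tuber arrays and 0.12 after quantile normalization, and the number of same-sign spots lay between 3971 and 4814. The replicate as a block therefore changed no call on spots or gene means.

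The other direction gave -1.02 for API, -0.77 for ADH1, -0.34 for pglcat8, -0.93 for CYP74D2, -0.55 for LOC102588776 and -1.91 for LOC102583085. It gave 1.05 for HRBP1, 0.65 for StSSR1, 0.55 for fumarase, 0.57 for gln, 0.40 for CDPK2, 0.55 for KST1, 0.53 for MADS16, 0.33 for met3-2, 0.43 for StMYB1R-1, 0.36 for LOC102581985 and 0.33 for LOC102604938. Every other in vivo difference changes sign in the same way. Of the 71 genes followed, 23 changed sign in at least 1 of the remaining settings, and the cause was not tested. DHAR read -0.086 with values on all tuber arrays. Quantile normalization gave -0.15 for PME1, -0.013 for PEST2, 0.055 for GAPDH, 0.080 for IAA2, 0.0063 for STUGE51 and 0.048 for SS16. With 1 array left out the difference ran from -0.38 to 0.0095 for MS, -0.035 to 0.21 for SHKA, -0.34 to 0.52 for PME1, -0.10 to 0.038 for GAPDH and -0.24 to 0.085 for IAA2. It ran from -0.91 to 0.42 for SGA, -0.73 to 0.41 for StSSR2, -0.39 to 0.20 for STUGE51, -0.97 to 0.38 for VPE2, -0.063 to 0.61 for Lea and -1.18 to 0.29 for MSP-II. It ran from -1.03 to 0.45 for OEE2, -0.29 to 0.22 for SS16, -0.11 to 0.19 for AC97, -0.28 to 0.34 for PEST2 and -1.86 to 0.21 for FLS. It ran from -0.069 to 0.69 for PPO, -0.47 to 0.75 for CAT1, -0.093 to 0.27 for PIN-II, -0.072 to 0.37 for eIF5A5, -0.25 to 0.68 for XIP1-1-BETA and -0.062 to 0.15 for SpdSy.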
